A study of Mus musculus with 21 samples.

Results

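The LINC complex and shelterin genes examined here are 10 genes of the 37620 in an RNA-seq table of mouse germ cells, taken as the rows whose gene symbol is Sun1, Sun2, Syne1, Syne2 (4 LINC genes), Terf1, Terf2, Terf2ip, Tinf2, Pot1a or Pot1b (6 shelterin genes). All 10 were found, and all had a mean above the minimum of 0.1 FPKM (fragments scaled to the length of the transcript and to the mapped fragments of the library) that a gene needed to be tested. The study mapped where the recombination protein PRDM9 binds and what decides the use of these sites in vivo, and it sequenced RNA to set hotspots against gene expression. Germ cells were enriched by collagenase and trypsin digestion from testes of C57BL/6J (B6) males at 12 days post-partum (dpp), when spermatogenesis has only reached early meiosis, and were labelled as spermatocytes. There were 12 libraries, 3 for each of the sample numbers 186wt, 343wt, 444wt and 456wt. All 4 share strain, age and cell preparation, and no treatment or mutation is named. Whether a number stands for a single male or a pool is not stated. The 3 libraries of a number may come from the same RNA, so the tests below compare these 4 samples and their p-values may measure only technical spread.

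LINC complexes span the nuclear envelope. A SUN protein in the inner membrane grips the chromatin side and binds, in the space between the membranes, the KASH domain of a nesprin or a related protein in the outer membrane, which reaches actin or microtubule motors. In meiotic prophase the ends of the chromosomes attach to SUN proteins, and motors outside the nucleus pull them about while homologs pair. Shelterin is the protein cap of the telomere. TRF1 and TRF2 (Terf1, Terf2) bind its duplex repeats, RAP1 (Terf2ip) rides on TRF2, TIN2 (Tinf2) links TRF1 and TRF2, TPP1 (Acd) binds TIN2, and POT1 covers the single-stranded end. Rodents have a pair of POT1 proteins, from Pot1a and Pot1b.

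The libraries held an estimated 12.9 to 18.1 M fragments (median 15.1 M). The labelled cell type was checked against marker lists. All 11 meiotic prophase markers were present, led by Tex101 (264 ± 64.2 FPKM, SD, n = 4) and Stag3 (92.9 ± 18.7 FPKM), and all 8 spermatogonial markers, led by Uchl1 (371 ± 53.5 FPKM) and Dazl (197 ± 41.1 FPKM). Sertoli cell markers were high as well, led by Clu, the most abundant marker, at 1844 ± 574 FPKM and Aard at 580 ± 174 FPKM. The summed level of the 9 Sertoli markers was 4060 FPKM in 186wt, 4185 in 343wt, 2354 in 444wt and 2529 in 456wt. In the same order of samples, the summed meiotic markers stood at 700, 476, 784 and 674 FPKM. Tex101 alone held 298, 171, 272 and 314 FPKM of these meiotic sums. The spermatogonial markers stood at 628, 634, 897 and 775 FPKM. The 6 peritubular myoid markers (led by Acta2, 473 ± 262 FPKM, and Myl9, 323 ± 157 FPKM) stood at 808, 406, 1005 and 1642 FPKM. The sums ran from 16.1 to 110 FPKM for 6 Leydig cell markers (led by Hsd3b1 and Insl3), from 14.5 to 37.9 FPKM for 6 endothelial markers (led by Cdh5 and Pecam1), from 7.64 to 33.3 FPKM for 6 macrophage markers (led by Lyz2 and C1qa) and from 3.27 to 5.05 FPKM for 6 spermatid markers (led by Spaca1 and Tnp1). Of the spermatid markers Prm2 was listed at 0 in all 12 libraries. In such mixed samples fewer cells of a type and less RNA per cell cannot be told apart.

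Among the LINC genes 3 were expressed at a high level and 1 at a much lower level. Sun1, a SUN protein needed for the attachment of meiotic telomeres, averaged 64.3 ± 8.36 FPKM (SD, n = 4 sample numbers), above 96.4% of all genes in the table. Syne2, which encodes nesprin-2, an actin-binding giant of the outer nuclear membrane, averaged 55.8 ± 12.1 FPKM, and Sun2, the second widely expressed SUN protein, 51.1 ± 9.16 FPKM. Syne1, which encodes nesprin-1, averaged only 3.17 ± 0.698 FPKM, above 69.3% of all genes and 44.5% of those of at least 0.1 FPKM. In NCBI build 37, Sun1 lies on chromosome 5 from 139676591 to 139725794 (plus strand) and Sun2 on chromosome 15 from 79554500 to 79572966 (minus strand). Syne1 lies on chromosome 10 from 4795849 to 5326338 (plus strand) and Syne2 on chromosome 12 from 76919121 to 77211913 (plus strand). All are protein-coding, and the nesprin genes have the longest transcripts of the 10, with up to 28204 bases for Syne1 and 21704 for Syne2. Since FPKM are per kilobase, even Syne1 rested on at least 117 fragments per kilobase in each sample number.

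The shelterin genes had means below those of Sun1, Syne2 and Sun2 and above that of Syne1. Tinf2, whose product ties both duplex-binding proteins together, led with 37.4 ± 4.72 FPKM. Pot1a (21.4 ± 2.47 FPKM) and Terf2 (21.1 ± 0.516 FPKM) followed, then Terf1 (15.7 ± 2.75 FPKM), Terf2ip (11.1 ± 0.858 FPKM) and Pot1b (8.28 ± 1.53 FPKM). The lowest of these was above 76.4% of all genes in the table, and above 57.3% of those averaging at least 0.1 FPKM. In NCBI build 37, Tinf2 lies on chromosome 14 from 56295455 to 56300654 (minus strand), Terf1 on chromosome 1 from 15795739 to 15833551 (plus strand) and Terf2 on chromosome 8 from 109593300 to 109620447 (minus strand). Terf2ip lies on chromosome 8 from 114535259 to 114544428 (plus strand), Pot1a on chromosome 6 from 25693737 to 25759246 (minus strand) and Pot1b on chromosome 17 from 55791323 to 55851926 (minus strand).

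From highest to lowest the order over both complexes was Sun1, Syne2, Sun2, Tinf2, Pot1a, Terf2, Terf1, Terf2ip, Pot1b and Syne1. Neighbours were taken to differ beyond their spread where the 4 number means of the upper gene all lay above the 4 of the lower gene. By this measure Sun1 and Syne2 did not differ (Sun1 was higher in 2 of 4 numbers), nor did Syne2 and Sun2 (3 of 4), Sun2 and Tinf2 (3 of 4) or Pot1a and Terf2 (2 of 4). Tinf2 stood clear of Pot1a, with a lowest number mean of 33.42 FPKM against a highest of 24.35 FPKM. Terf2 stood above Terf1 (20.39 against 19.71 FPKM), Terf1 above Terf2ip (13.84 against 12.15 FPKM) and Pot1b above Syne1 (6.47 against 4.18 FPKM). Terf2ip and Pot1b nearly touched, at 10.24 and 10.22 FPKM.

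The 6 shelterin genes summed to 106 FPKM in 186wt, 108 in 343wt, 129 in 444wt and 117 in 456wt. Tinf2 held 32.5 ± 1.13% of this sum (SD, n = 4), Pot1a 18.6 ± 0.695%, Terf2 18.4 ± 1.29%, Terf1 13.6 ± 1.10%, Terf2ip 9.75 ± 1.55% and Pot1b 7.17 ± 0.843%. These are shares of transcript levels and not of protein.

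By exact matches in coding transcripts, reads could be told apart between the members. Matches with a mismatch and non-coding transcripts were not searched. Of all stretches of 100 bases, the read length, in the coding transcripts of the 10 genes, 0 occurred in the coding transcript of another gene. Tinf2 shares 232 of its 2959 exonic bases (7.84%) with Gmpr2 on the opposite strand (10.5 FPKM), and Sun2 shares 147 of 4969 (2.96%) with the long non-coding RNA Gm16575 (0.0783 FPKM). Whether strand was used is not stated, so these overlaps could carry fragments from the one gene to the other.

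**Figure D1:**
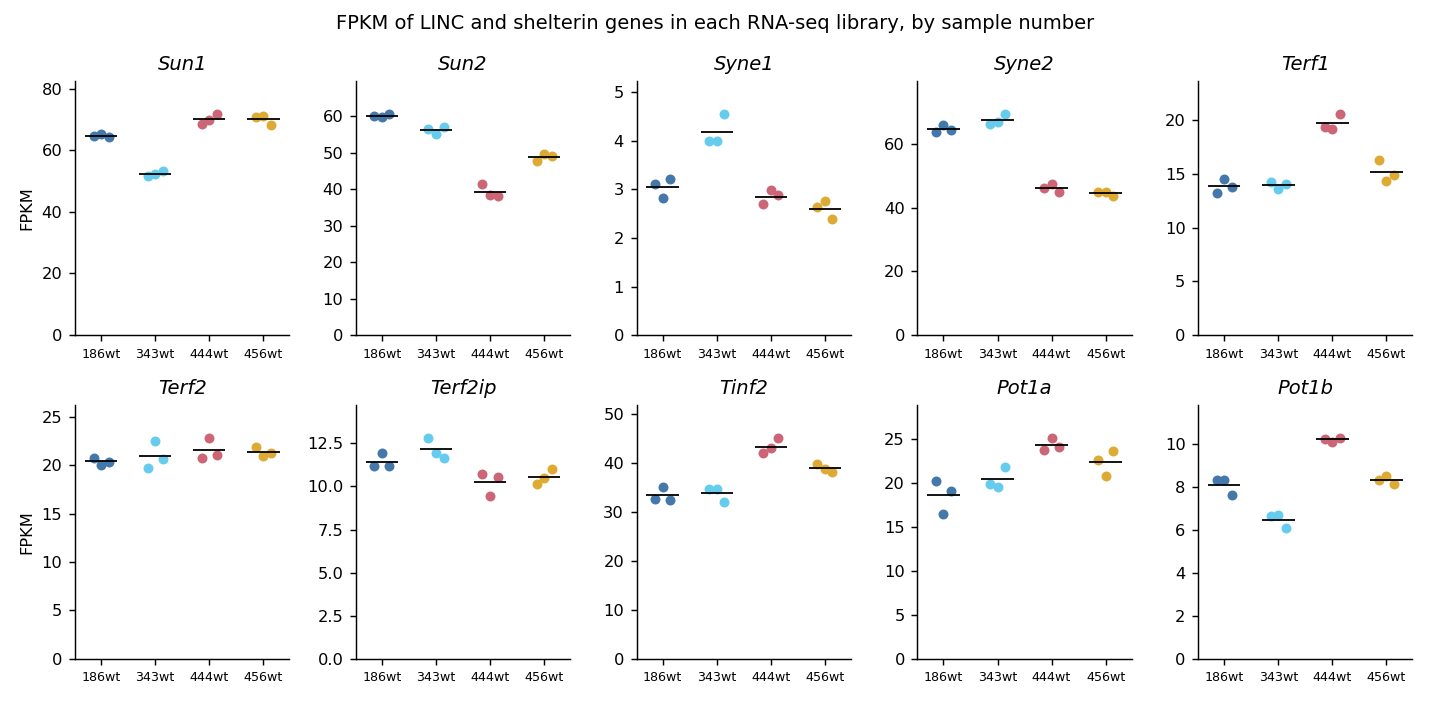
FPKM of the 10 genes in each library (points) by sample number, with the mean of the 3 libraries as a bar, and each axis starting at 0. Libraries of a number lie close together for Sun1, Sun2 and Syne2, while those of Pot1a in 186wt run from 16.44 to 20.27 FPKM. Syne2 splits into a pair of high and a pair of low numbers, and Terf2 stays between 19.74 and 22.83 FPKM throughout.

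The promoters of Sun1, Sun2, Tinf2, Pot1a and Pot1b are shown because the first pair of paralogs moved apart between samples, and the others reached their highest level in the same sample (below). RefSeq promoter sequences (GRCm38.p6, from 250 bases before to 50 after the start) were found for 9 of the 10 genes, all except Terf1. Those printed span chr5:139200387-139200686 (plus strand, the first of 2 listed), chr15:79742487-79742786 (minus strand), chr14:55681768-55682067 (minus strand), chr6:25809169-25809468 (minus strand) and chr17:55712587-55712886 (minus strand, the first of 2 listed). Capitals mark matches on either strand to GGGCGG (a GC box), CCAAT and TGACGTCA (a cyclic AMP response element), and overlapping matches run together.
Sun1: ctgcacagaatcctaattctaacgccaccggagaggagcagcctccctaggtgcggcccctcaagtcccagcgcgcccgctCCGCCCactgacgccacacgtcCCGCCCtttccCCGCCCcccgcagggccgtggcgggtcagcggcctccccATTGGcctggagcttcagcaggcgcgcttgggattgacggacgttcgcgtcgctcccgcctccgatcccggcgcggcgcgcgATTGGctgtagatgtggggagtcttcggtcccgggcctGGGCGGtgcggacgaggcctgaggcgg
Sun2: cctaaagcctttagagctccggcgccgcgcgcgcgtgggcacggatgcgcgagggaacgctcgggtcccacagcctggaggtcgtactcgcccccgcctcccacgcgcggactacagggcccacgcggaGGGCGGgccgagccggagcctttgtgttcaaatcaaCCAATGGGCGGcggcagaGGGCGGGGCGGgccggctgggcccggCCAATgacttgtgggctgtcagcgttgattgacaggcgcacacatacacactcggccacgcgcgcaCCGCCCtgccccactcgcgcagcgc
Tinf2: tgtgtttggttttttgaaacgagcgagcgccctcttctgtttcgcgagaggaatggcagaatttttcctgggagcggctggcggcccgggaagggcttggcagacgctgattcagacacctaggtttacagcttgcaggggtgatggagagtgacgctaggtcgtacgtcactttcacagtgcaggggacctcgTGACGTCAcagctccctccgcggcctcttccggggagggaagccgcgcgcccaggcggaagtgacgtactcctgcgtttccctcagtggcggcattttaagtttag
Pot1a: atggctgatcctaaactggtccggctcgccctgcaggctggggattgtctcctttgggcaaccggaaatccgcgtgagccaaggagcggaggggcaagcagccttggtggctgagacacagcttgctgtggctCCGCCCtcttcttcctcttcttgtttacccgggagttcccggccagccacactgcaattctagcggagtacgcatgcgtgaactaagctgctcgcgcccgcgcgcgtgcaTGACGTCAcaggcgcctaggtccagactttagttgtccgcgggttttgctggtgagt
Pot1b: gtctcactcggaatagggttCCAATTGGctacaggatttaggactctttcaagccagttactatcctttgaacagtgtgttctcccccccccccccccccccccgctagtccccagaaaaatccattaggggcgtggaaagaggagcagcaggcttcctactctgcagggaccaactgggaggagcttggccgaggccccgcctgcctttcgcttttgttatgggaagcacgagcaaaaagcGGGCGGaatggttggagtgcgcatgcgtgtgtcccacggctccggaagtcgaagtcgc
The promoters printed for Sun1 and Sun2 each had 71.3% G and C, and that of Syne2 had 71.0%. The median over 32851 promoters of the same length was 52.7%. The 3 promoters listed for Syne1 had 69.0%, 40.3% and 50.3%, and those at 40.3% and 50.3% held 0 GC boxes. Among the shelterin promoters found, G and C ran from 52.7% (Terf2) to 60.7% (Pot1a). The second promoter of Sun1, not printed, had 45.3% G and C, 0 GC boxes and 1 CCAAT match. The first Sun1 promoter held 4 GC boxes and 2 CCAAT matches, and Sun2 held 5 and 2. Tinf2 and Pot1a each held 1 TGACGTCA, a match found in 1.79% of all promoters, while GGGCGG was in 35.7% and CCAAT in 37.4%. The Pot1b promoter held 1 GC box and 2 CCAAT matches and no TGACGTCA. A match describes the letters only.

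Of the 10 genes, 9 differed between the 4 sample numbers in a limma F-test on log2(FPKM + 0.1) with Benjamini-Hochberg adjustment over the 20795 genes tested. That test called 58.2% of all genes, and 77.6% of those with a mean of at least 1 FPKM, so differing is common in this table. The median distance from the highest to the lowest number was 0.46 (log2) over the 10 genes, 0.61 over the LINC genes and 0.38 over the shelterin genes, beside 0.55 over all genes tested. That 0.55 takes in genes down to a mean of 0.1 FPKM, while the lowest member, Syne1, averaged 3.17 FPKM. The member not called was Terf2, with 20.78, 20.07 and 20.33 FPKM in 186wt, 19.74, 22.52 and 20.66 in 343wt, 20.80, 22.83 and 21.02 in 444wt and 21.89, 20.99 and 21.29 in 456wt. The 343wt libraries overlapped with those of every other number, while 186wt lay just below 444wt and 456wt. The highest and lowest number were 0.08 apart (log2, limma adjusted p = 0.502). Its coefficient of variation over the numbers was 2.45%, against 7.74% to 22.0% for the other members.

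Each sample number was then set against the mean of the other 3, in log2(FPKM + 0.1), with the same limma fit. Over all genes the medians of these differences were -0.05 for 186wt, -0.10 for 343wt, 0.08 for 444wt and 0.05 for 456wt. These medians and the shares called higher or lower, here and below, cover every gene tested, down to a mean of 0.1 FPKM. They are not limited to genes at the level of the members. Of the 40 differences of the members, 24 were called. In 186wt 2 members were higher and 3 lower (14.8% and 21.9% of all genes), in 343wt 4 were higher and 4 lower (14.5% and 25.6%), in 444wt 5 were higher and 3 lower (26.5% and 17.8%), and in 456wt 1 was higher and 2 lower (22.9% and 13.6%). Without 343wt the total was 14, without 186wt 19, without 444wt 17 and without 456wt 23. Each of these totals comes from fewer differences, since those of the sample left out are gone. Of the 4 LINC genes, 2 were called higher and 0 lower in 186wt, 3 and 1 in 343wt, 1 and 2 in 444wt, and 1 and 2 in 456wt, with median differences of 0.18, 0.30, -0.25 and -0.20.

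Sun1 was lowest in 343wt. It measured 64.49, 65.37 and 64.42 FPKM in 186wt, 51.62, 52.11 and 53.15 in 343wt, 68.40, 69.84 and 71.68 in 444wt, and 70.84, 70.95 and 68.32 in 456wt. All 3 libraries of 343wt lay under the 9 others, whereas 444wt and 456wt overlapped. On the log2 scale 343wt was lower than the others by -0.38 ± 0.02 (SE, limma adjusted p = 3.82e-08), and 444wt and 456wt were each higher by 0.18 ± 0.02. These last differences rested on 343wt. Without it they were 0.05 (limma adjusted p = 0.0753) and 0.06 (limma adjusted p = 0.0773), the distance from highest to lowest number fell from 0.42 to 0.11 (still called, limma adjusted p = 0.00565), and 186wt turned from 0.03, not called, to -0.11 (limma adjusted p = 0.00221). Without 444wt or 456wt, 186wt was called higher, by 0.10 in each case (limma adjusted p = 0.00510 and 0.00568).

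Sun2 ran another course and was lowest in 444wt. Its values were 59.89, 59.80 and 60.50 FPKM in 186wt, 56.37, 55.05 and 57.03 in 343wt, 41.31, 38.39 and 38.04 in 444wt, and 47.80, 49.58 and 49.02 in 456wt. The libraries of the 4 numbers did not overlap. The sample 186wt was higher by 0.34 ± 0.03 (SE, limma adjusted p = 1.22e-06), 343wt was higher by 0.21 ± 0.03 (limma adjusted p = 5.36e-05) and 444wt lower by -0.48 ± 0.03 (limma adjusted p = 5.26e-08). Without 444wt the 343wt difference was 0.05 and no longer called (limma adjusted p = 0.0809), that of 186wt was 0.20 (limma adjusted p = 9.45e-05), 456wt was called lower by -0.25 (limma adjusted p = 7.83e-06), and the distance from highest to lowest number was 0.30 in place of 0.61. The 456wt difference, -0.06 with all libraries, was also called without the third library of 444wt (-0.07, limma adjusted p = 0.0497) and after scaling to a common upper quartile (-0.10, limma adjusted p = 0.0118). Without 186wt, 343wt was higher by 0.36.

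Syne2 divided the samples into pairs. It measured 63.88, 66.11 and 64.48 FPKM in 186wt and 66.14, 66.90 and 69.37 in 343wt, against 46.13, 47.41 and 45.08 in 444wt and 45.04, 44.90 and 43.59 in 456wt. The 6 libraries of the first pair lay far above the 6 of the second, and all 4 numbers were called against the others, 186wt by 0.32 ± 0.02, 343wt by 0.40 ± 0.02, 444wt by -0.33 ± 0.02 and 456wt by -0.40 ± 0.02 (SE, limma adjusted p from 8.30e-08 to 5.67e-07). Leaving out the other sample of a pair raised the difference, for 186wt to 0.51 without 343wt and for 444wt to -0.52 without 456wt. The summed Sertoli markers stood in the same pairs, with 4060 and 4185 FPKM against 2354 and 2529. Of the 9 markers, 8 were called higher in 186wt and 9 in 343wt, and 8 were called lower in 444wt and 9 in 456wt. Their part in the Syne2 and Sun2 values was not tested.

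Syne1 was highest in 343wt, at 3.99 to 4.55 FPKM in its 3 libraries, against 3.12, 2.82 and 3.21 in 186wt, 2.70, 2.98 and 2.88 in 444wt and 2.63, 2.77 and 2.40 in 456wt. The 343wt libraries lay above all others, while the other numbers overlapped in part. The 343wt difference was 0.55 ± 0.07 (SE, limma adjusted p = 0.000118), and 456wt was lower by -0.34 ± 0.07 (limma adjusted p = 0.00383). Without 343wt the numbers no longer differed by the test (0.22 from highest to lowest, limma adjusted p = 0.184), nor did 456wt (-0.18, limma adjusted p = 0.151), and without 456wt, 444wt was called lower by -0.31 (limma adjusted p = 0.00907). The Leydig sum (110 FPKM in 343wt against 16.1 to 60.9) and the macrophage sum (33.3 against 7.64 to 28.6) were also highest in 343wt, as was the Sertoli sum (4185 FPKM). The order of the other samples was not shared. In 456wt, where Syne1 was lowest, the Leydig and macrophage sums were 60.9 and 28.6 FPKM, against 16.1 and 7.64 in 444wt. The part of these cell types was not tested.

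**Figure D2:**
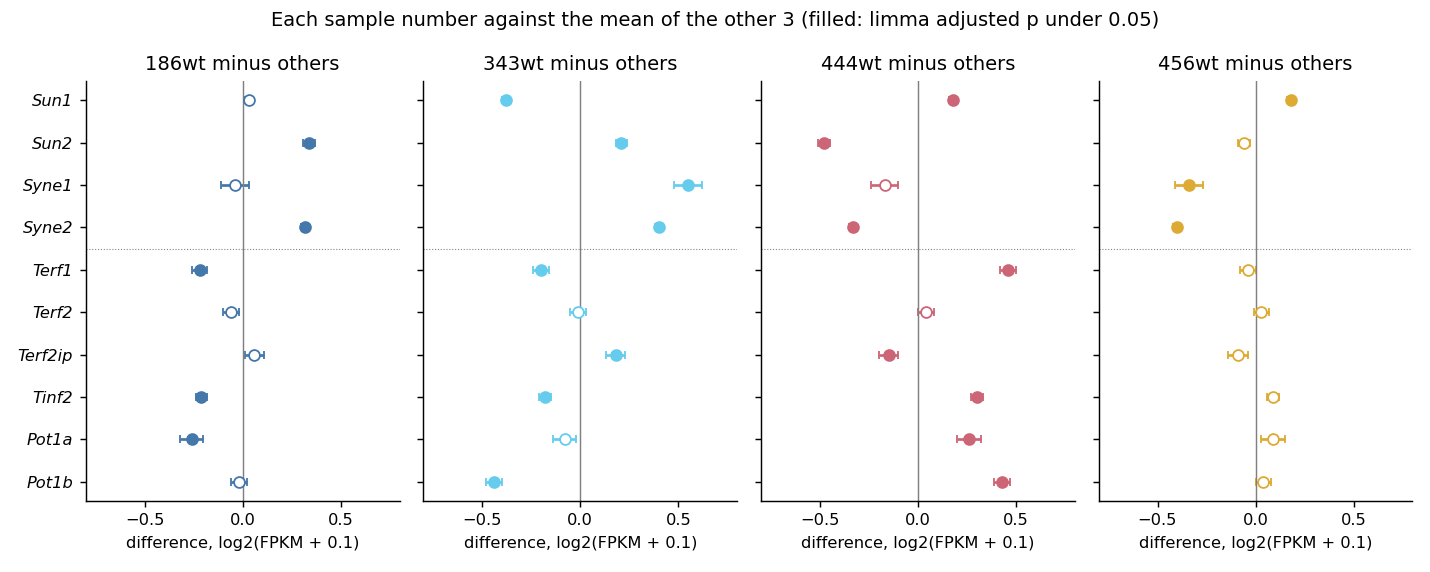
Difference of each sample number from the mean of the other 3 in log2(FPKM + 0.1) for the 10 genes, with bars of 1 SE and filled points where the limma adjusted p was under 0.05. In 444wt 4 shelterin genes have filled points to the right of 0, Sun2, Syne2 and Terf2ip have filled points to the left, and Terf2 has open points in all 4 panels.

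Of the 6 shelterin genes, 4 were called higher in 444wt (Terf1, Tinf2, Pot1a and Pot1b) and 1 lower (Terf2ip). Over all genes 26.5% were called higher there, the largest share of higher calls in the 4 numbers, and 17.8% lower. In 444wt the median difference over the 6 was 0.28, beside 0.08 over all genes tested. In 186wt 3 were called lower and 0 higher (21.9% and 14.8% of all genes), and in 343wt 3 lower and 1 higher (25.6% and 14.5%), each with a median of -0.13, beside -0.05 and -0.10 over all genes. In 456wt 0 of the 6 were called in either direction at an adjusted p under 0.05, with a median of 0.03.

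Terf1, which binds the duplex repeats, measured 19.41, 19.16 and 20.56 FPKM in 444wt, against 13.20, 14.50 and 13.82 in 186wt, 14.22, 13.63 and 14.08 in 343wt and 16.27, 14.38 and 14.93 in 456wt. All 444wt libraries lay above the 9 others, and 186wt overlapped with both 343wt and 456wt. The 444wt difference was 0.46 ± 0.04 (SE, limma adjusted p = 5.13e-06), 186wt was lower by -0.22 ± 0.04 and 343wt by -0.20 ± 0.04 (limma adjusted p = 0.00189 and 0.00313). Without 444wt nothing of this remained past the threshold, with 0.13 from highest to lowest number (limma adjusted p = 0.129), -0.07 for 186wt and -0.05 for 343wt (limma adjusted p = 0.290 and 0.469). Without 186wt, 343wt was lower by -0.31.

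Tinf2 was also highest in 444wt, with 41.99, 43.06 and 45.18 FPKM against 39.88, 38.83 and 38.21 in 456wt, 34.75, 34.80 and 32.07 in 343wt and 32.72, 35.08 and 32.45 in 186wt. Only 186wt and 343wt overlapped. The 444wt difference was 0.30 ± 0.03 (SE, limma adjusted p = 3.24e-05), 186wt was lower by -0.21 ± 0.03 and 343wt by -0.18 ± 0.03 (limma adjusted p = 0.000662 and 0.00149). Without 444wt, 343wt was at -0.09 and not called (limma adjusted p = 0.0957), 186wt at -0.12 (limma adjusted p = 0.0361), 456wt was called higher by 0.21 (limma adjusted p = 0.00124), and the distance between numbers was 0.22 in place of 0.38. The 456wt difference, 0.09 with all libraries, was called at 0.10 without the second library of 186wt (limma adjusted p = 0.0319) or the third of 444wt (limma adjusted p = 0.0444). Without 186wt, 343wt was lower by -0.28.

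The single-strand binding pair shared the high sample but not the low one. Pot1a, needed in the mouse to keep the DNA damage response silent at chromosome ends, measured 23.78, 25.14 and 24.13 FPKM in 444wt, 22.61, 20.80 and 23.67 in 456wt, 19.84, 19.54 and 21.85 in 343wt and 20.27, 16.44 and 19.13 in 186wt. The 444wt libraries were above all others, the closest at 23.67 FPKM, and the other numbers overlapped with their neighbours. The 444wt difference was 0.26 ± 0.06 and that of 186wt -0.26 ± 0.06 (SE, limma adjusted p = 0.00522 and 0.00539). Without 444wt, the numbers were 0.27 apart and not called (limma adjusted p = 0.0606), nor was 186wt (-0.20, limma adjusted p = 0.0613), while 456wt was called higher by 0.20 (limma adjusted p = 0.0478). Without 186wt, 343wt was called lower by -0.19 (limma adjusted p = 0.0105), with 0.25 between numbers in place of 0.39.

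Pot1b, which limits the trimming of the opposite strand at chromosome ends, measured 10.26, 10.10 and 10.29 FPKM in 444wt, 8.31, 8.52 and 8.15 in 456wt, 8.34, 8.35 and 7.61 in 186wt and 6.63, 6.68 and 6.10 in 343wt. The 444wt libraries were above and the 343wt libraries below all others, and 186wt and 456wt overlapped. The difference was 0.43 ± 0.04 for 444wt and -0.44 ± 0.04 for 343wt (SE, limma adjusted p = 1.13e-05 and 9.75e-06). The 0.65 between highest and lowest number was 0.33 without 343wt and 0.36 without 444wt, called in both cases. Without 343wt, 186wt was called lower by -0.19 (limma adjusted p = 0.00806), and without 444wt, 456wt was called higher by 0.20 (limma adjusted p = 0.0118).

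Terf2ip moved the other way, and least of the shelterin genes called. It measured 12.82, 11.97 and 11.65 FPKM in 343wt, 11.16, 11.92 and 11.17 in 186wt, 10.16, 10.51 and 11.04 in 456wt and 10.72, 9.45 and 10.56 in 444wt, so that 343wt overlapped with 186wt and 456wt with 444wt, and the first pair lay above the second. The numbers were 0.24 apart (limma adjusted p = 0.0157), with 343wt higher by 0.18 ± 0.05 (SE, limma adjusted p = 0.0132) and 444wt lower by -0.15 ± 0.05 (limma adjusted p = 0.0283). These calls hung on single libraries. Without the first library of 343wt the numbers were 0.21 apart (limma adjusted p = 0.0517) and 343wt was at 0.14 (limma adjusted p = 0.0831), and without the second library of 444wt that sample was at -0.09 (limma adjusted p = 0.173). Without 343wt the distance was 0.16 (limma adjusted p = 0.129) and 444wt was at -0.10 (limma adjusted p = 0.176), and without 186wt, 444wt was at -0.15 (limma adjusted p = 0.0599). With no filter on low values the 444wt difference was not called (limma adjusted p = 0.0540), and without 444wt, 456wt was called lower by -0.15 (limma adjusted p = 0.0246).

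The summed spermatogonial markers were highest in 444wt as well (897 FPKM against 628 to 775), with 7 of 8 called higher there. So were the summed meiotic markers (784 FPKM against 476 to 700), with 10 of 11 called higher and 1 lower. Of the 6 myoid markers 4 were also called higher in 444wt. There 8 of 9 Sertoli markers, all 6 Leydig, all 6 endothelial and 5 of 6 macrophage markers were called lower. Over all genes 26.5% were called higher and 17.8% lower in 444wt. In 456wt 7 of 8 spermatogonial markers were called higher too, where 0 of the 6 shelterin genes were called in either direction. In 343wt, where Sun1 and Pot1b had their lowest values, all 11 meiotic markers (median difference -0.52), all 6 myoid markers (-1.50) and 6 of 8 spermatogonial markers (-0.21) were called lower, and all 9 Sertoli markers (0.44) and all 6 Leydig markers (1.49) higher. The part of these cell types in the values of the members was not tested.

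**Figure D3:**
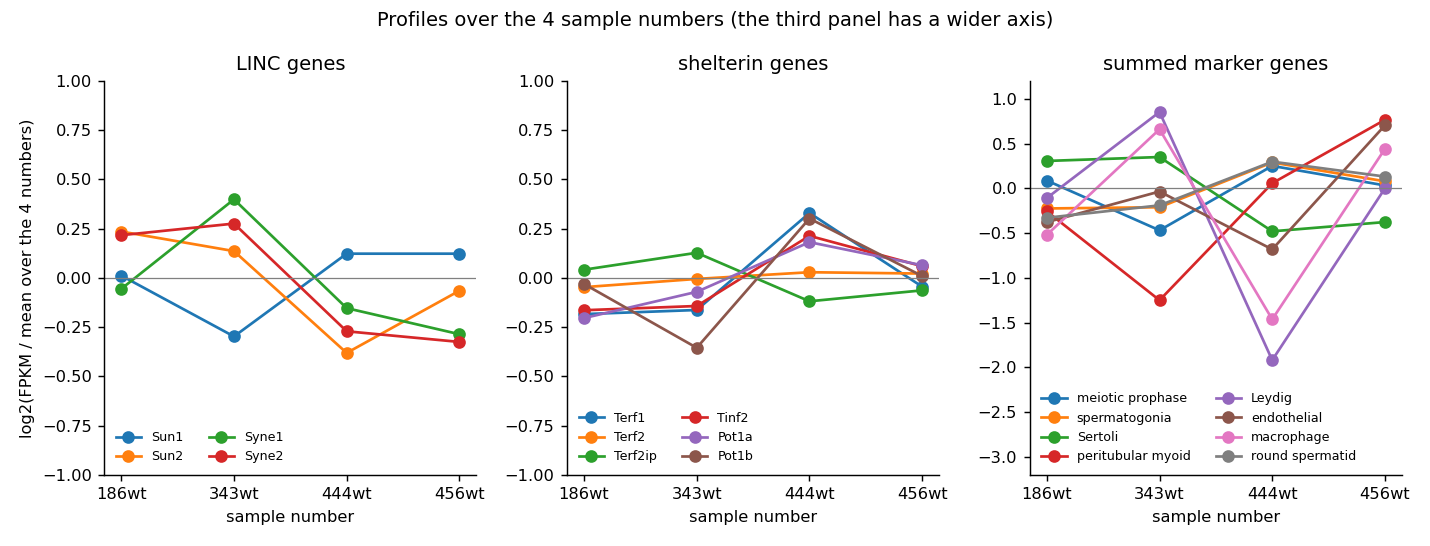
Level of each LINC gene, each shelterin gene and each summed marker list over the 4 sample numbers, as log2 of FPKM over the mean of the 4 numbers, with a wider axis for the markers. Sun1 is lowest in 343wt, where Syne1 and Syne2 are highest, Terf1, Tinf2, Pot1a and Pot1b peak in 444wt, and the Sertoli sum is higher in 186wt and 343wt than in 444wt and 456wt.

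Ratios of paralogs within a library do not depend on how the library was scaled. The 4 pairs were tested with an exact permutation test over all distinct assignments of the 12 libraries to the 4 numbers, adjusted over the 4 pairs. Sun1 over Sun2 was 1.08 in 186wt, 0.931 in 343wt, 1.78 in 444wt and 1.44 in 456wt, so that the SUN gene with the higher FPKM changed between samples. The test compares the ratio between samples and not with 1. Sun1 exceeded Sun2 in 9 of 12 libraries, the 3 exceptions being those of 343wt. The ratio spanned 0.94 on the log2 scale (exact permutation p = 6.49e-05, the smallest the design allows, adjusted p = 0.000260). Without 444wt it spanned 0.62 (exact permutation test, adjusted p = 0.0143). Leaving out any 1 number gave this same adjusted p, since fewer assignments raise the smallest p the test can give.

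The other pairs kept their order in all 12 libraries. Syne1 over Syne2 was 0.0470 in 186wt, 0.0618 in 343wt, 0.0617 in 444wt and 0.0583 in 456wt (exact permutation test, adjusted p = 0.00961), although Syne2 itself changed by 1.52-fold. The difference rested on 186wt, and without it the span fell from 0.40 to 0.08 on the log2 scale (exact permutation test, adjusted p = 0.35). Terf1 over Terf2 was 0.678, 0.667, 0.915 and 0.709 in the same order of samples (exact permutation test, adjusted p = 0.00994), and without 444wt its span fell from 0.46 to 0.09 (exact permutation test, adjusted p = 0.546). Pot1a over Pot1b was 2.29, 3.15, 2.38 and 2.68 (exact permutation test, adjusted p = 0.00961), and without 343wt its span fell from 0.46 to 0.23 (exact permutation test, adjusted p = 0.171). In single libraries Pot1a was 1.97 to 3.58 times Pot1b.

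**Figure D4:**
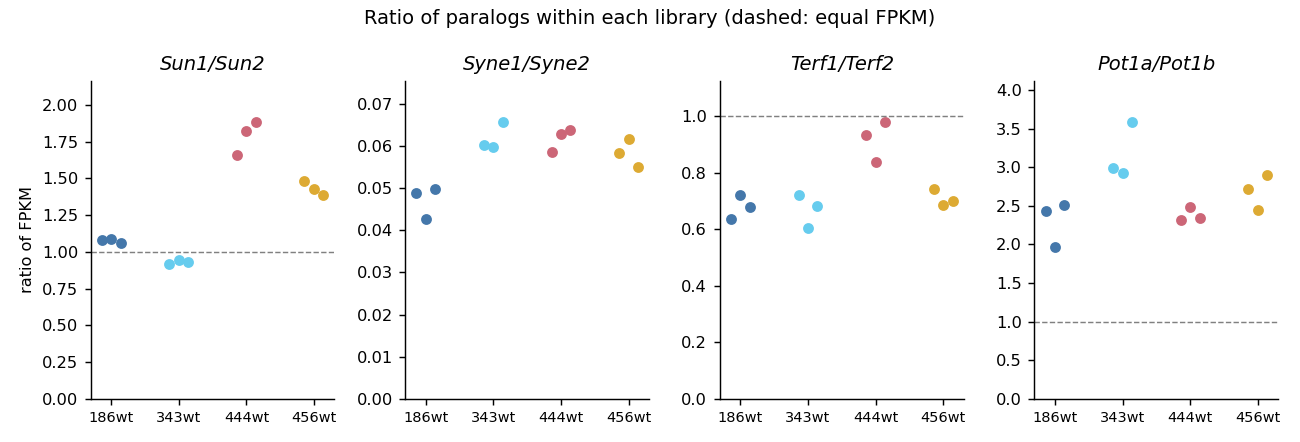
Ratio of the FPKM of paralogs in each of the 12 libraries by sample number, with axes from 0 and a dashed line at equal FPKM. Sun1/Sun2 lies under 1 in the 3 libraries of 343wt and reaches 1.88 in 444wt, while Syne1/Syne2 and Terf1/Terf2 stay under 1 and Pot1a/Pot1b stays above 1.

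The genes these proteins work with were taken from lists of their pathways. Acd, the remaining shelterin subunit, which brings in telomerase, averaged 24.9 ± 4.58 FPKM (SD, n = 4), between Tinf2 and Pot1a. It had 20.8 FPKM in 186wt, 21.0 in 343wt, 28.3 in 444wt and 29.3 in 456wt. By the limma fit 186wt and 343wt were called lower and 444wt and 456wt higher.

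The meiosis-specific proteins that join telomeres to the envelope were expressed at lower levels than their partners Sun1 and Terf1. Kash5 (listed as Ccdc155), the meiotic KASH protein that recruits dynein, had 12.1 FPKM in 186wt, 6.11 in 343wt, 12.5 in 444wt and 9.44 in 456wt. Of the complex that ties telomeres to the inner membrane, Terb1 (Ccdc79) had 4.10, 2.53, 5.57 and 4.14 FPKM, Majin (1700123I01Rik) 5.78, 4.34, 7.99 and 5.42 FPKM, and Terb2 (4933406J08Rik) 2.41, 2.43, 3.63 and 2.26 FPKM. Spdya, which activates Cdk2 at telomeres, had 5.88, 3.47, 7.86 and 4.23 FPKM, and Cdk2 itself, a kinase of cycling cells too, 63.9, 65.7, 64.3 and 58.8 FPKM. Of these 6 genes, 5 differed between numbers, Terb2 being the exception (limma adjusted p = 0.117). In 444wt 5 were called higher and 0 lower (26.5% and 17.8% of all genes), and in 343wt 4 were called lower and 1 higher (25.6% and 14.5%). The median differences were 0.63 and -0.63, beside 0.08 and -0.10 over all genes. In 186wt 2 were higher and 0 lower (14.8% and 21.9% of all genes), and in 456wt 0 higher and 2 lower (22.9% and 13.6%). The distance from highest to lowest number was 1.03 on the log2 scale for Kash5 and 0.42 for Sun1.

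Other SUN and KASH genes were low. Spag4, a SUN protein of spermatids, averaged 4.27 ± 0.886 FPKM (SD, n = 4), Syne4 (AI428936), a nesprin that binds kinesin, 2.67 ± 0.367 FPKM, Irag2 (Lrmp) 0.548 ± 0.0574 FPKM and Sun3, a testis SUN protein, 0.234 ± 0.0726 FPKM. Sun5, a SUN protein of the sperm neck, was listed at 0 in all 12 libraries, and Syne3 was not analysed here. Of the 4 tested, 1 (Spag4) differed between numbers, beside 58.2% of all genes. Spag4 was called lower in 343wt (25.6% of all genes) and higher in 444wt (26.5%), and 0 were called in 186wt or 456wt (limma, adjusted p under 0.05).

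The motor subunits that KASH proteins can recruit were abundant, and all 18 except Dynlrb2 had a higher mean than Terf1. The highest were the dynein light chains Dynll1 (292 ± 30.1 FPKM, SD, n = 4), Dynlt1b (137 ± 11.9 FPKM), which has near-identical copies that can share its reads, and Dynll2 (133 ± 12.7 FPKM). The lowest was Dynlrb2 at 0.719 ± 0.318 FPKM. Of the 18, 16 differed between numbers, beside 58.2% of all genes and 77.6% of those of at least 1 FPKM. Their median distance from highest to lowest number was 0.27, under the 0.55 over all genes tested, which reach down to a mean of 0.1 FPKM. In 186wt 7 were called higher and 4 lower (14.8% and 21.9% of all genes), in 343wt 8 and 2 (14.5% and 25.6%), in 444wt 3 and 8 (26.5% and 17.8%), and in 456wt 5 and 7 (22.9% and 13.6%).

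Telomerase genes were present as well. Tert, the catalytic subunit, averaged 4.24 ± 0.801 FPKM (SD, n = 4). The highest were the RNP proteins Gar1 (73.6 ± 4.55 FPKM), Nhp2 (69.8 ± 5.60 FPKM) and Dkc1 (32.0 ± 2.74 FPKM), which also serve other small RNPs, and Terc was not analysed here. Of the 7 tested, 6 differed, beside 77.6% of all genes of at least 1 FPKM. In 186wt 0 were called higher and 4 lower (14.8% and 21.9% of all genes), and in 343wt 2 and 3 (14.5% and 25.6%). In 444wt the counts were 2 and 0 (26.5% and 17.8%), and in 456wt 4 and 1 (22.9% and 13.6%). Among 11 genes of telomere processing the highest were the tankyrase Tnks2 (73.2 ± 6.80 FPKM), Rif1 (41.3 ± 2.85 FPKM) and the helicase Rtel1 (35.3 ± 4.98 FPKM). Of the 11, 8 differed, a share near that of all genes of at least 1 FPKM (77.6%). In 186wt 5 were called higher and 1 lower, in 343wt 3 and 1, in 444wt 3 and 4, and in 456wt 1 and 4, beside the same shares of all genes as for telomerase.

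**Figure D5:**
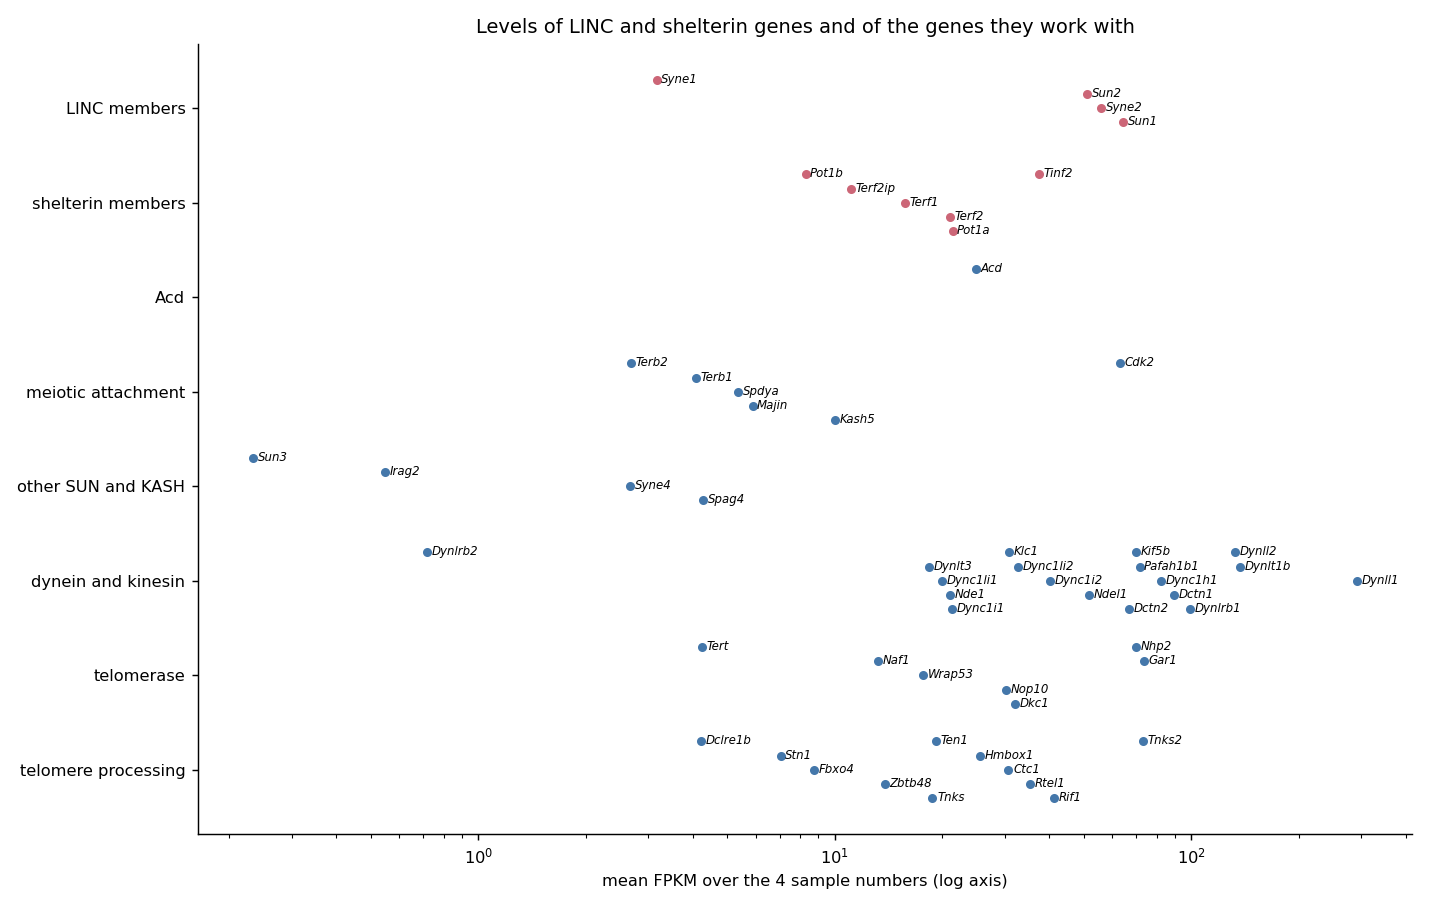
Mean FPKM over the 4 sample numbers on a log axis for the 10 members (red) and the genes of their pathways (blue), 1 point a gene, with genes at 0 left out and vertical offsets only to part the names. Sun1 lies above all meiotic attachment genes, Syne2 and Sun2 above all of them except Cdk2, and Syne1 lies below all other members.

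The genes most like Syne1 and Pot1b, the LINC and the shelterin gene with the largest distance between numbers, were sought among 14348 genes of at least 1 FPKM by the root mean square difference of the centred log2 profiles over the 4 numbers. For Syne1 they were Tppp3 (0.023), Epha2 (0.028) and Edn1 (0.041). For Pot1b they were 4930422G04Rik (0.003), Gm20517 (0.012) and Gm12976 (0.013). With 4 points a profile, close matches are easily found among so many genes.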

How the data were processed

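RNA was measured in 12 libraries of enriched B6 germ cells at 12 dpp. Other assays of the study were not analysed here. The authors used BowTie 0.12.9 on paired reads of 100 bp against the NCBI build 37 transcriptome, dropped those with 2 or more mismatches and took the deposited FPKM from RSEM 1.2.8 (fragment length 280 ± 50), rounded to 2 decimals. A strand setting is not given in the sources used here. Sample groups came from the titles. For levels and their SD each number, as the mean of its 3 libraries, was 1 replicate. The limma and permutation tests used the 12 libraries singly. Their SE and p-values therefore rest on the spread between libraries of a number and not on the spread between replicates.

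Fragments per library were estimated from the steps of the deposited FPKM values, in 6418 genes having only 1 transcript, 600 to 1500 bp long. Differences between numbers came from limma 3.58.1 under R 4.3.3 (empirical Bayes with a mean-variance trend) on log2(FPKM + 0.1), at an adjusted p of 0.05, in genes that averaged 0.1 FPKM or more. This scale understates the change of low genes. Ratios were tested in Python 3.11.15 by exact permutation. The tests were checked on simulated data. Positions came from GENCODE M1 on NCBI build 37. The genes named were all members, Acd, the meiotic attachment and other SUN and KASH lists, the 3 highest of the other pathway lists and the 2 highest of each marker list. Tert, Dynlrb2, Gm16575 and Gmpr2 were named after their values were seen. The members and lists were chosen with earlier results of these data known.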

Additional observations from a re-analysis of the deposited data

How the results depend on the processing

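The F-test of the 10 members was repeated under the alternatives (240 values in all), of which 235 kept their side of the threshold and 5 lost the call. Those 5 came from leaving out a sample number or, for Terf2ip, 1 library. Of 920 values for single sample numbers, 892 kept their call, 13 lost it, 14 gained it and 1 reversed. The last was Sun1 in 186wt, at -0.11 without 343wt. Pseudocount, scaling, filter and trend changed no F-test call, and among the values for single numbers they changed those of Sun2 in 456wt (upper quartile) and Terf2ip in 444wt (no filter). Leaving out 343wt brought the 24 called differences to 14, partly because fewer differences are tested. Without 186wt the log2 span of Syne1/Syne2 was 0.08, without 343wt that of Pot1a/Pot1b was 0.23, and without 444wt that of Terf1/Terf2 was 0.09, none past the threshold. With the library number as a replicate block, 9 members and 24 differences were called as before, and 11774 genes in place of 12107. The numbers do not pair the libraries, since same-numbered libraries correlated from -0.0648 to 0.128 (18 pairs) and 5 of 12 correlated best with their own number. Among 22 values checked for a sample far from the others, 0 stood out, where 1.10 would by chance. Of 60 values for the levels of the members, 10 moved by more than their spread, all on scaling to a common sum (TPM), which changes the unit of every level (Sun1 from 64.3 to 134, Syne1 from 3.17 to 6.60). Over the members the lowest depth in a sample ran from 117 (Syne1) to 2689 (Sun1) fragments per kilobase.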
